A study of Homo sapiens with 3 samples.

Results

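The 10 genes described here are targets of the transcription factor NF-kB: the chemokines CXCL1, CXCL2, CXCL3 and CXCL8, the interleukin-1 cytokines IL1A and IL1B, the chemokines CCL2 and CCL20, and the feedback inhibitors NFKBIA and TNFAIP3. They were picked by gene name, and all 10 were found among the 58735 genes of the count tables. Both inhibitors and the chemokines CXCL1, CXCL2 and CXCL8 were counted in every library, CXCL3 was counted between 2 and 16 times per library, and the remaining 4 genes never exceeded 3 counts. None of the 6 genes with enough counts for a test passed it between the libraries labelled PD-L1 knockdown (the knockdown-labelled libraries) and the control. CXCL8 differed more between the 2 knockdown-labelled libraries than either differed from the control on a fold scale.

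NF-kB is held in the cytoplasm by inhibitors of the IkB family, until signals from receptors such as those for TNF or interleukin-1 activate the IkB kinase and the inhibitor is degraded. The freed dimers enter the nucleus and switch on genes of inflammation, which in epithelial tumour cells include neutrophil-attracting chemokines. Among the genes switched on are NFKBIA and TNFAIP3, whose products end the signal, so their transcripts are often read beside those of the chemokines.

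The study compared RNA-seq of cells labelled DU145, an androgen-independent human prostate cancer cell line, after stable knockdown of PD-L1 by pLKO.1 lentiviral hairpins under puromycin. PD-L1, encoded by CD274, is the ligand through which tumour cells restrain T cells, and the study asked what it does inside the cell. There was 1 library of the control and 1 each for shRNA 1 and shRNA 2 (knockdown-labelled libraries 1 and 2), with totals of 14733088 to 15786457 counts. Where 3 values are given for a gene, they stand in the order control, knockdown-labelled library 1, knockdown-labelled library 2. The methods give empty pLKO.1 vector as the knockdown control but name the sequenced control only as DU145, print the sequence of 1 hairpin only, and do not say whether the stable lines were single clones. Separate cultures are not stated, so the p-values given here measure only the spread between these libraries, which may be technical.

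The labels, the series text, the methods and the counts differed in several respects. CD274 was counted 204 times in the control, 213 times in knockdown-labelled library 1 and 224 times in knockdown-labelled library 2. It was thus not lower in either (log2 fold change 0.05, SE 0.20, adjusted p = 0.947 by the quasi-likelihood test of edgeR, adjusted after Benjamini-Hochberg), and the libraries are therefore named by their labels throughout. The methods state that the stable lines were checked for PD-L1 protein by Western blot. The paper shows such a blot, with densitometry, to verify the knockdown in DU145 cells. That measure is of protein, not RNA, and was not analysed here. The series text names BCPAP, a thyroid cancer line, RBM45 stands in the heading of the control counts (a gene with 150, 160 and 152 counts), and the medium is DMEM in the labels and EMEM in the methods. The prostate lineage genes KLK3, KLK2, HOXB13 and TMPRSS2 were at 0 in all 3 libraries, whereas NKX2-1, a thyroid and lung lineage factor, was at 1833 to 2590 counts and FOXE1, a thyroid lineage factor, at 645 to 738. The thyroid genes TG and TSHR had at most 15 counts in a library. The 4 epithelial genes (KRT8, KRT18, EPCAM and CDH1) summed to 27014 counts in the control and 29409 and 31103 in knockdown-labelled libraries 1 and 2. Leukocytes and macrophages make many of the cytokines described here, and their 9 marker genes summed to 25, 28 and 21 counts, with CD3E and AIF1 at 0 in every library and PTPRC at 0, 3 and 1. The 6 fibroblast and endothelial genes summed to 110, 109 and 158 counts, with DCN at 0 throughout. COL1A1 alone made up 101, 98 and 149 of these counts.

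The promoters of the 6 members with enough counts for a test hold matches to the motif that NF-kB is known to bind. The stretches around the matches are shown as a description of sequence, and binding was not tested. The sequences are from RefSeq (GRCh38.p14), written 5′ to 3′ on the strand of the gene, with capitals on every match to the searched motifs on either strand.
CXCL1: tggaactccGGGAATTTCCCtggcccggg
CXCL2: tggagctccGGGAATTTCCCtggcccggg
CXCL3: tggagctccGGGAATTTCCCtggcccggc
CXCL8: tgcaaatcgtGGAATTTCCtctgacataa
NFKBIA: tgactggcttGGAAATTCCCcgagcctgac
TNFAIP3: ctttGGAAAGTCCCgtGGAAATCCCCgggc

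They lie at chr4:73869305-73869333 on the plus strand for CXCL1, chr4:74099254-74099282 on the minus strand for CXCL2, chr4:74038749-74038777 on the minus strand for CXCL3, chr4:73740468-73740496 on the plus strand for CXCL8, chr14:35404811-35404840 on the minus strand for NFKBIA and chr6:137867188-137867217 on the plus strand for TNFAIP3. The stretches end between 42 and 73 bases before the RefSeq start of their gene. In the GENCODE annotation, whose genes the counts follow, some transcripts start earlier, so that the whole stretch of CXCL2, CXCL3 and TNFAIP3 falls in a non-coding part of an annotated exon, while those of CXCL1, CXCL8 and NFKBIA lie outside every exon of their gene. Over 29 aligned bases CXCL1 and CXCL2 were identical at 28, CXCL2 and CXCL3 at 28 and CXCL1 and CXCL3 at 27, whereas CXCL1 and CXCL8 shared 17. No other stretch of these promoters was compared.

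Among the 300-base windows (250 bases before to 50 after the start) of all 27305 genes in the table, GGGAATTTCC, the form that the NF-kB consensus takes in the CXCL1 promoter, was found on either strand in 0.1795%. It was found in 4 of the 9 members with a window, which were CXCL1, CXCL2, CXCL3 and NFKBIA. The shorter GGAATTTCC, which is contained in it, was present in 0.5603% of genes and in 5 members, the additional member being CXCL8. CXCL1 matches both forms by construction, because they were read from its window. The stretches of CXCL2 and CXCL3 are near copies of that of CXCL1. The counts of members beside these shares are therefore no measure of enrichment. The NF-kB consensus, which overlaps both forms, was present in 13.25% of genes and in 6 members, namely CXCL1, CXCL2, CXCL3, NFKBIA, TNFAIP3 and CCL20. IL1A and IL1B had no match to any of the 3. A match describes letters in this window and is not evidence of binding in these cells.

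The members covered a wide range of levels. On the FPKM scale, which divides by gene length and so allows levels to be set side by side between genes, NFKBIA was the highest at 45.3 ± 3.16 (mean ± SD over the 3 libraries), above 95.8% of the genes tested. TNFAIP3 followed at 7.03 ± 0.0663 FPKM, CXCL2 at 5.11 ± 0.490, CXCL8 at 3.56 ± 1.10 and CXCL1 at 1.16 ± 0.202. CXCL3 was at 0.268 ± 0.214 FPKM, above 13.1% of the genes tested, and CCL20 (0.0970), IL1B (0.0572), IL1A (0.0424) and CCL2 (0.0227) had the lowest mean FPKM. The ranges of the 3 libraries overlapped between the neighbours CXCL2 and CXCL8, CXCL3 and CCL20, IL1B and IL1A, and IL1A and CCL2, so the order within these pairs is not set beyond the spread. CD274 itself, at 3.43 FPKM, lay close to CXCL8.

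**Figure D1:**
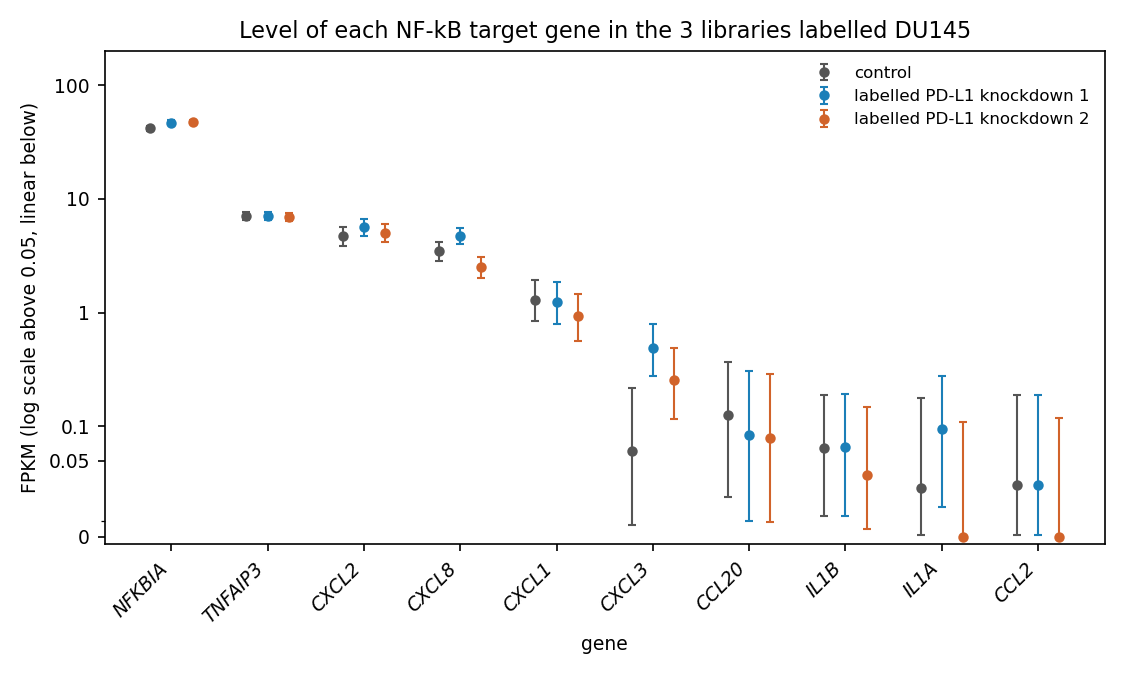
FPKM of the 10 genes (y axis, logarithmic above 0.05 and linear below) in the 3 libraries. Points are single libraries and bars are exact 95% counting intervals. NFKBIA lies near 45 FPKM in all 3 libraries, CXCL8 is the well-counted gene whose points lie farthest apart, and the 4 genes at the right rest on 3 counts or fewer.

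Across all genes, 49 of 19849 tested were higher and 21 lower in the knockdown-labelled libraries at an adjusted p below 0.05 in edgeR, which is 0.353% of genes. Of the 6 members tested, 0 passed. At an unadjusted p under 0.05, which 11.7% of all genes passed, 1 member passed, and at that p with an absolute log2 fold change above 1, which 2.48% of all genes passed, the same member, CXCL3, passed. With DESeq2, 0 members passed at either p. The median log2 fold change of the 6 members was 0.11, with 4 above and 2 below 0, beside a median of 0.00 over all genes tested. Because 1 library stands for the control, the spread comes from the 2 knockdown-labelled libraries, with 1 residual degree of freedom per gene, and the fit gave all genes of like level the same spread.

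NFKBIA (ENSG00000100906, chr14:35401511-35404749, minus strand) encodes IkB-alpha, the inhibitor that binds NF-kB and is itself an NF-kB target. It was counted 1468 times in the control, 1638 times in knockdown-labelled library 1 and 1781 times in knockdown-labelled library 2, equal to 99.5, 111 and 113 TMM-scaled CPM. Both knockdown-labelled libraries lay above the control and close to each other. The ratio of scaled counts to the control was 1.12 (exact 95% counting interval 1.04 to 1.20) and 1.13 (1.06 to 1.22), and the fitted fold change of 1.13 had a 95% interval of 0.950 to 1.34. NFKBIA thus did not pass the test (log2 fold change 0.17, SE 0.13, adjusted p = 0.620, edgeR), and after removal of the dependence on transcript length and GC content its log2 fold change was 0.03.

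TNFAIP3 (ENSG00000118503, chr6:137867188-137883312, plus strand) encodes A20, a ubiquitin-editing enzyme that turns off signalling to the IkB kinase. Its counts were 530 in the control, 528 in knockdown-labelled library 1 and 555 in knockdown-labelled library 2, or 35.9, 35.9 and 35.1 TMM-scaled CPM. The 3 libraries lay within counting error of each other. The fitted fold change was 0.989 with a 95% interval of 0.798 to 1.23 (log2 fold change -0.02, SE 0.16, adjusted p = 0.979, edgeR), an interval that leaves out a change as large as 1.5-fold in either direction. The non-coding gene AL357060.1 overlaps TNFAIP3 on the opposite strand and had 26 to 35 counts. Whether counting used the strand is not given in the sources used here.

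CXCL8 (ENSG00000169429, chr4:73740506-73743716, plus strand) encodes interleukin-8, which attracts neutrophils through CXCR1 and CXCR2. It was counted 117 times in the control, 158 times in knockdown-labelled library 1 and 90 times in knockdown-labelled library 2, or 7.93, 10.8 and 5.69 TMM-scaled CPM. The knockdown-labelled libraries lay on opposite sides of the control. The ratio to the control was 1.36 (1.06 to 1.74) in knockdown-labelled library 1 and 0.718 (0.540 to 0.954) in knockdown-labelled library 2, and the ratio of the second to the first was 0.530 (0.404 to 0.690). Over both, the fitted fold change was 1.03 (0.739 to 1.44), with a log2 fold change of 0.05, SE 0.25 and adjusted p = 0.964 (edgeR). Without knockdown-labelled library 1 the log2 fold change was -0.48, and without knockdown-labelled library 2 it was 0.44. The intervals of the ratios cover counting error only, and the ratios compare libraries, not conditions.

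The pattern of CXCL8 was also found in other genes of its level. It was looked for because CXCL8 showed it, so its share does not measure how unusual CXCL8 is. Opposite sides of the control, with both counting intervals leaving out 1, were found in 95 of 19849 genes (0.479%) and in 11 of the 3666 genes with a mean of 50 to 250 counts (0.3%). Between knockdown-labelled libraries 2 and 1, a ratio past 1.5-fold was found in 6.27% of the genes in that count window, and a counting interval that left out 1 in 20.3%. The 2 libraries differed beyond counting error across genes in general (chi-square per degree of freedom 6.09 over 16129 genes), so the counting interval of a single gene understates the spread between libraries. CXCL8 is also the member with the lowest GC content (33.4% of its longest transcript), and with the length and GC trends removed its log2 fold change over both libraries was 0.19. CXCL8 shared no 31-base word with the transcripts of another gene.

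CXCL2 (ENSG00000081041, chr4:74097035-74099293, minus strand) encodes a CXCR2 ligand also known as MIP-2-alpha. Its counts were 104, 125 and 119 in the 3 libraries, or 7.05, 8.51 and 7.53 TMM-scaled CPM. Both lay above the control within counting error, at ratios of 1.21 (0.923 to 1.58) and 1.07 (0.815 to 1.40). The log2 fold change was 0.18 with an SE of 0.25 (fold 1.14, 95% interval 0.805 to 1.60, adjusted p = 0.823, edgeR). A 1.5-fold rise thus lies inside the interval and a 1.5-fold fall outside it.

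CXCL1 (ENSG00000163739, chr4:73869393-73871242, plus strand), the growth-regulated chemokine GRO-alpha and likewise a CXCR2 ligand, was counted 25, 24 and 19 times in the same order. Knockdown-labelled library 1 was at the level of the control and knockdown-labelled library 2 was the lowest. The ratios were 0.964 (0.527 to 1.76) and 0.710 (0.370 to 1.34), and the fit gave a log2 fold change of -0.26 with an SE of 0.53 (adjusted p = 0.896, edgeR). At this depth neither a rise nor a fall of 1.5-fold could be told from no difference.

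CXCL3 (ENSG00000163734, chr4:74036589-74038807, minus strand), the GRO-gamma chemokine, was counted 2 times in the control, 16 times in knockdown-labelled library 1 and 9 times in knockdown-labelled library 2. Both lay above the control, on few counts. The ratio was 8.04 (1.89 to 72.0) for the first and 4.20 (0.870 to 40.0) for the second, and the counting interval left out 1 for the first only. The fitted log2 fold change of 2.53 (SE 1.15) had an unadjusted p of 0.0278 and an adjusted p of 0.359 by edgeR, and it depends on the prior count, being 1.84 with a prior count of 2. DESeq2 gave an unadjusted p of 0.133. On the log2(FPKM + 1) scale, which understates changes of low genes, the difference was 0.37.

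CXCL1, CXCL2 and CXCL3 are closely related copies, and their single values are uncertain because the treatment of reads matching several genes is not given in the sources used here. Of the 31-base words of CXCL2, 22.5% also occurred in transcripts of another gene, compared with 14.4% for CXCL1 and 9.54% for CXCL3, most of them in another of the 3 genes. Summed, they had 131, 165 and 147 counts in the 3 libraries. The sum was 1.27 times the control (1.00 to 1.60) in knockdown-labelled library 1 and 1.05 times (0.822 to 1.34) in knockdown-labelled library 2. Tested as 1 gene, the 3 had a log2 fold change of 0.21 (adjusted p = 0.775, edgeR), against -0.26 for CXCL1 alone. CXCL3 contributed 2, 16 and 9 of these counts.

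**Figure D2:**
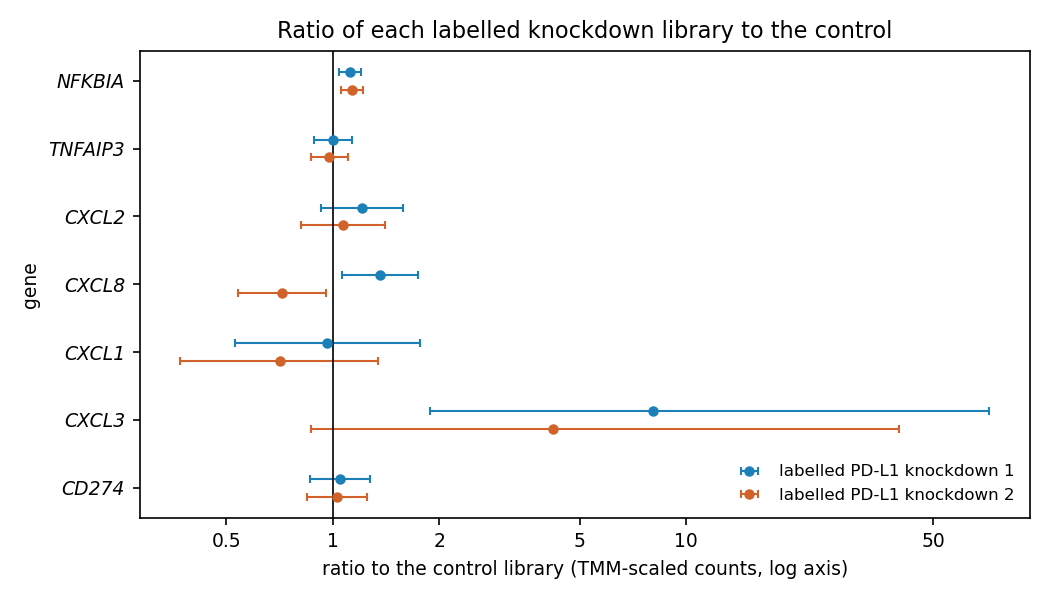
Ratio of TMM-scaled counts of each knockdown-labelled library to the control (x axis, logarithmic) for the 6 members tested and CD274. Bars are exact 95% counting intervals and the vertical line marks a ratio of 1. Both points of NFKBIA lie above 1, those of CXCL8 lie on either side of it, and CXCL3 has the widest bars.

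IL1A (ENSG00000115008) and IL1B (ENSG00000125538), the genes of interleukin-1 alpha and beta on chromosome 2, activate NF-kB through the receptor IL1R1. IL1A was counted 1, 3 and 0 times and IL1B 3, 3 and 2 times in the 3 libraries. CCL2 (ENSG00000108691), which attracts monocytes, was counted 1, 1 and 0 times, and CCL20 (ENSG00000115009), the ligand of CCR6, was counted 3, 2 and 2 times. No library exceeded 3 counts for any of these 4 genes, they were left out of the test, and no fold is given. The only counts of 0 were those of IL1A and CCL2 in knockdown-labelled library 2, and they allow up to 0.190 CPM (3 counts, counting error only). Counts above 0 allow more. In bulk RNA, few cells with the transcript and little transcript per cell cannot be told apart.

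Summed over the 8 secreted members, 256, 332 and 241 counts were found in the 3 libraries, of which CXCL2 and CXCL8 made up most. The sum was 1.30 times the control (1.10 to 1.54) in knockdown-labelled library 1 and 0.879 times (0.734 to 1.05) in knockdown-labelled library 2. The higher sum in the former was thus not seen in the latter. Past 1.5-fold against the control was 1 of the 6 tested members in each library, CXCL3 in both, where 21.9% of all genes tested were past it in knockdown-labelled library 1 and 23.3% in knockdown-labelled library 2. The counting interval of the ratio left out 1 for 3 members in knockdown-labelled library 1 (NFKBIA, CXCL8 and CXCL3, all above the control), where it did for 29.0% of all genes, and for 2 in knockdown-labelled library 2 (NFKBIA above and CXCL8 below), where it did for 38.2%. Between knockdown-labelled libraries 2 and 1, CXCL8 and CXCL3 were past 1.5-fold, both lower in the former, as were 20.7% of all genes in either direction, and the interval left out 1 for CXCL8 alone among the members and for 26.2% of all genes. These shares do not set the members apart from other genes, and the ratios to the control share that library.

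The receptors of the secreted members were almost uncounted. CXCR1 and CXCR2, which bind the neutrophil chemokines, CCR2, the receptor of CCL2, CCR6, the receptor of CCL20, and the decoy receptor ACKR1 were at 0 in all 3 libraries. The decoy receptors ACKR2 and ACKR4 had 3, 3 and 2 counts and 6, 3 and 0 counts in the 3 libraries. None of the 7 had enough counts for a test. In contrast, IL1R1, the signalling receptor of interleukin-1, had 278, 246 and 283 counts (log2 fold change -0.12). IL1R1 was chosen with its values known.

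The other genes of the pathway were taken as 10 lists with 121 genes, of which 88 had enough counts for a test and 23 were at 0 in all 3 libraries. Of the 88, 0 passed at an adjusted p under 0.05 with edgeR, where 0.353% of all genes did, and 0 with DESeq2. At an unadjusted p under 0.05, 11 were higher and 4 lower in the knockdown-labelled libraries, 17.0% of the 88 beside 11.7% of all genes (1353 higher and 976 lower). With the length and GC trends removed the split turned to 3 higher and 6 lower. The median log2 fold change of the 88 was 0.02, with 46 above and 42 below 0. Every list with more than 1 tested gene had genes on both sides of 0, as the plot by list shows.

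**Figure D3:**
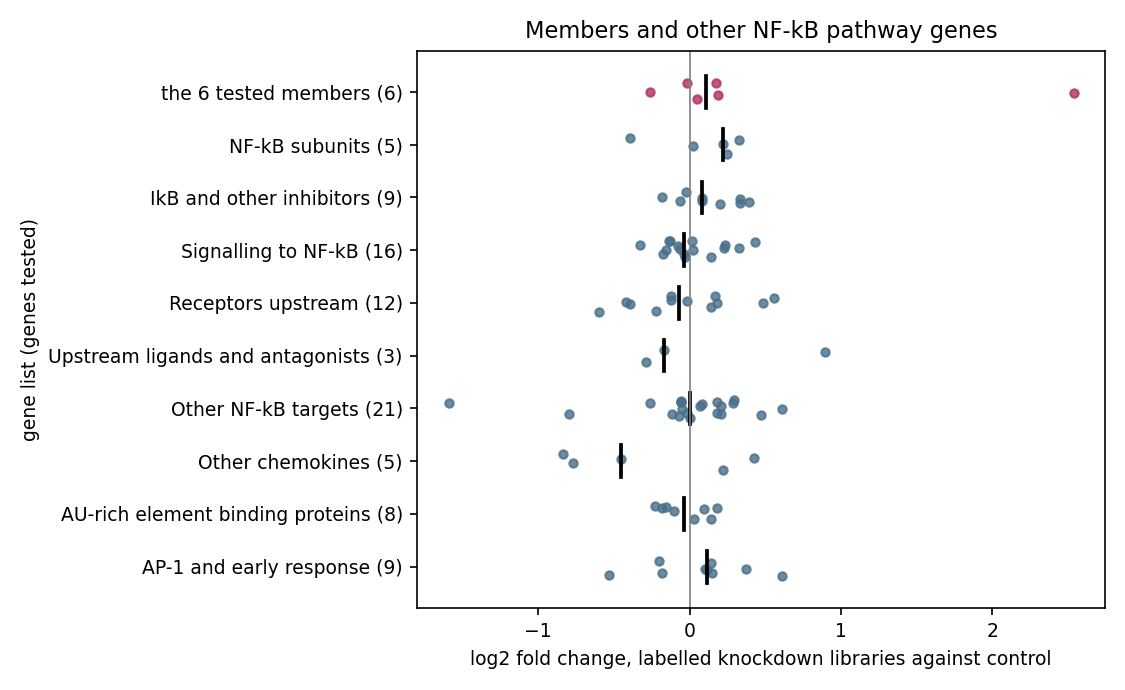
Log2 fold change (x axis) of the knockdown-labelled libraries against the control for the 6 tested members and for the tested genes of 9 pathway lists (the list of the members' receptors had none). Each point is 1 gene, with the number of genes tested in brackets, and black bars are medians, which run from -0.45 for the other chemokines to 0.22 for the NF-kB subunits. Vertical scatter within a list carries no value.

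The subunits of NF-kB were all well counted. RELA, the transactivating subunit of the classical dimer, was counted 1787, 2081 and 2308 times in the 3 libraries (log2 fold change 0.25, adjusted p = 0.403, edgeR). NFKB2, the precursor of p52 in the alternative pathway, was counted 1329, 1633 and 1816 times (0.33, adjusted p = 0.262, edgeR). REL, encoding c-Rel, was counted 460, 345 and 377 times and lay below the control in both (log2 fold change -0.40, adjusted p = 0.316, edgeR). NFKB1, the precursor of p50, had a log2 fold change of 0.02. At an unadjusted p under 0.05, 2 of the 5 subunits were higher and 1 lower, and none passed after adjustment.

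The 9 other inhibitors had a median log2 fold change of 0.08, with 3 higher and 0 lower at an unadjusted p under 0.05 (edgeR) and 0 after adjustment. The highest were TNIP2 and TNIP1, partners of A20 that bind ubiquitin chains. TNIP2 was counted 803, 972 and 1209 times in the 3 libraries (log2 fold change 0.39, adjusted p = 0.211, edgeR), and TNIP1 1938, 2321 and 2734 times (0.33, adjusted p = 0.224, edgeR). The lowest with a mean of at least 100 counts were NFKBIZ, a nuclear IkB protein, at a log2 fold change of -0.06, and OTULIN, which removes linear ubiquitin chains, at -0.02.

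Among the 16 signalling genes, 2 were higher and 1 lower at an unadjusted p under 0.05 (edgeR), and 0 passed after adjustment. TRADD, the adaptor of the TNF receptor, was counted 351, 443 and 538 times in the 3 libraries (log2 fold change 0.43, adjusted p = 0.268, edgeR), and IRAK1, a kinase downstream of interleukin-1 and Toll-like receptors, 5305, 6421 and 7345 times (0.33, adjusted p = 0.193, edgeR). RIPK1, a kinase at the TNF receptor, was counted 884, 781 and 667 times (log2 fold change -0.33, adjusted p = 0.331, edgeR), and IKBKG, the regulatory subunit of the IkB kinase, 251, 263 and 195 times (-0.17). The list had no single direction, with 7 genes above and 9 below 0.

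Of the 14 receptors that signal to NF-kB, 12 were tested and 1 was lower at an unadjusted p under 0.05 (edgeR). That gene was IL1RAP, the accessory chain of the interleukin-1 receptor, with 382, 262 and 330 counts in the 3 libraries (log2 fold change -0.42, adjusted p = 0.313, edgeR). LTBR, the lymphotoxin-beta receptor, had 2013, 2110 and 2580 counts (0.17). IL17RC, a chain of the interleukin-17 receptor, had a log2 fold change of 0.18 and TLR6, which senses bacterial lipopeptides with TLR2, -0.22. Of the 7 upstream ligands and antagonists only 3 had enough counts. TNF, IL33 and IL17C were at 0 in all libraries, and IL18, a cytokine of the interleukin-1 family, was counted 597, 540 and 465 times (log2 fold change -0.29, adjusted p = 0.457, edgeR).

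The list of 24 other NF-kB targets had a median log2 fold change of 0.01 over 21 tested genes, with 2 higher and 0 lower at an unadjusted p under 0.05 (edgeR). GADD45B, a stress-induced survival factor, was counted 854 times in the control, 1085 times in knockdown-labelled library 1 and 1362 times in knockdown-labelled library 2, for a log2 fold change of 0.47 with an SE of 0.14 (adjusted p = 0.0949, edgeR). It lay above the control in both libraries but missed the threshold, and DESeq2 gave it an adjusted p of 0.9998. IL32 was counted 115, 124 and 168 times (0.29), SOD2, the mitochondrial superoxide dismutase, 1694, 1639 and 1578 times (-0.12), and the syndecan SDC4 3525, 3602 and 3327 times (-0.07). IL6, also chosen with its values known, stood at 64, 40 and 71 counts (-0.26).

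Most of the 22 other chemokines were at or near 0, with 11 at 0 in all 3 libraries and 16 at 3 counts or fewer. Of the 5 tested, CXCL16, a transmembrane chemokine, had 277, 316 and 352 counts in the 3 libraries (log2 fold change 0.22), and CCL28, a mucosal chemokine, 134, 82 and 121 (-0.45, adjusted p = 0.471, edgeR). CXCL5, a further CXCR2 ligand that was singled out from its values, stood at 74, 60 and 29 counts, with a log2 fold change of -0.77 (SE 0.34) and the only unadjusted p under 0.05 of the list (adjusted p = 0.351, edgeR). Its ratio to the control was 0.814 (0.570 to 1.16) in knockdown-labelled library 1 and 0.366 (0.230 to 0.569) in knockdown-labelled library 2. On scaled counts knockdown-labelled library 2 was the lowest for CXCL5, CXCL8 and CXCL1, whereas the control was the lowest for CXCL2, CXCL3 and CXCL6. CXCL5 thus lay below the control in both, unlike CXCL8.

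Chemokine transcripts are also set by their stability, through proteins that bind AU-rich elements, and by AP-1, which acts beside NF-kB on many of their promoters. Of the 8 genes for such RNA-binding proteins, 0 passed at an adjusted or an unadjusted p under 0.05 with edgeR, and their median log2 fold change was -0.04. ZFP36, which destabilises such transcripts, was counted 275, 295 and 332 times in the 3 libraries (0.14), and the endonuclease gene ZC3H12A 165, 115 and 187 times (-0.18). KHSRP, another destabilising protein, was the highest of the list at 0.18 and TIA1, a translational repressor, the lowest at -0.23 on the log2 scale. Of the 9 AP-1 and early response genes, JUNB was the highest, counted 388, 544 and 684 times (log2 fold change 0.61, SE 0.16, adjusted p = 0.0508, edgeR). It was just outside the threshold with edgeR only, as DESeq2 gave it an adjusted p of 0.9998 at a log2 fold change of 0.61. JUND, another AP-1 subunit, had 1022, 1244 and 1494 counts (0.37, adjusted p = 0.212, edgeR), while EGR1, an early response factor, had 1129, 1011 and 1015 (-0.20) and the Fos family gene FOSL1 2490, 2935 and 2571 (0.10). At an unadjusted p under 0.05, 2 of the 9 were higher and 0 lower, and 0 passed after adjustment.

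The GC content of the transcripts moved with these values. Among the genes averaging 100 counts or more, split into 5 equal classes, the median log2 fold change ran from -0.18 at the lowest GC content (30.2 to 40.7%) to 0.21 at the highest (57.8 to 74.5%). The 11 pathway genes that were higher at an unadjusted p under 0.05 had a GC content of 56.9 to 69.7%, and the 4 that were lower had 37.6 to 49.6%. With the length and GC trends removed, the log2 fold changes of the 11 went from between 0.25 and 0.61 to between 0.06 and 0.30, and those of the 4 from between -0.77 and -0.33 to between -0.64 and -0.16. JUNB then had a log2 fold change of 0.30 (adjusted p = 0.651, edgeR) and GADD45B 0.21 (adjusted p = 0.706, edgeR). Of the 88 pathway genes, 10.2% then passed an unadjusted p under 0.05, beside 7.4% of all genes (842 higher and 626 lower). The 3 higher were CYLD, HNRNPD and JUNB, and the 6 lower were IKBKG, MAP3K14, RIPK1, CSF1, ZFP36L2 and EGR1, listed here because they passed. Of the 11 higher and 4 lower genes before, 2 (RIPK1 and JUNB) were among these.

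**Figure D4:**
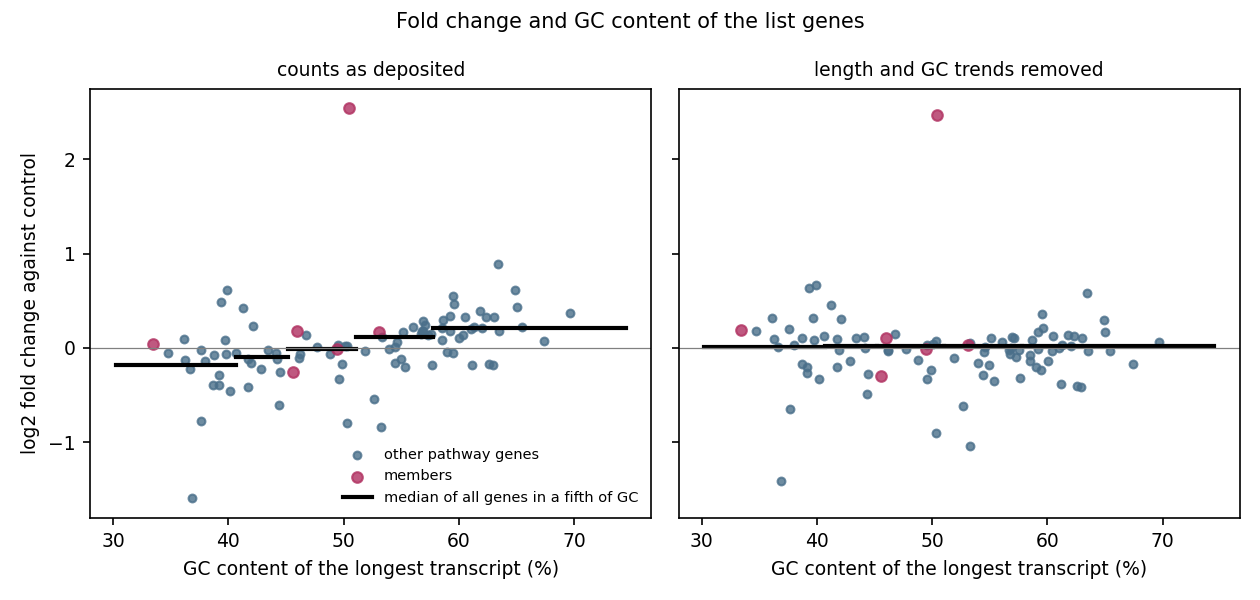
Log2 fold change (y axis) against the GC content of the longest transcript (x axis, %) for the 6 tested members and the 88 tested pathway genes, before (left) and after (right) the trends with length and GC content were removed. Black lines are the medians of all genes averaging 100 counts or more in each of 5 equal classes of GC content, which rise from -0.18 to 0.21 on the left and lie at 0.01 to 0.02 on the right.

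For the members the removal of the trends left 0 of 6 past an adjusted p under 0.05 (edgeR). The log2 fold changes became -0.30 for CXCL1, 0.11 for CXCL2, 2.47 for CXCL3, 0.19 for CXCL8, 0.03 for NFKBIA and -0.01 for TNFAIP3. The values of NFKBIA (53.1% GC) and CXCL8 (33.4% GC) moved the most, in opposite directions. CD274 then had a log2 fold change of 0.19 (adjusted p = 0.890, edgeR).

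The genes whose pattern was most like that of NFKBIA, the best counted member, were MCM7, ACD, TP53I3, IFIT2 and CAPZB, by the Euclidean distance of their 2 log2 ratios to the control (0.0046 to 0.0057). Over 3 libraries this measure separates little, and 1071 of the 10860 genes compared lay within 0.1 of NFKBIA. MCM7 was counted 3576, 3993 and 4352 times in the 3 libraries.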

How the data were processed

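RNA-seq was performed on 3 libraries, 1 control and 2 labelled PD-L1 knockdown (the knockdown-labelled libraries), grouped by the sample labels. The authors deposited unnormalized read counts per gene, and FPKM, which were checked to equal the count over gene length and over 1 constant for the library for all 58735 genes. The submitters' processing notes name Bowtie2 2.0.6, TopHat2 2.0.9, Cufflinks 2.1.1 and Cuffdiff 2.1.1 without roles. The counting tool, its use of strand and its treatment of reads matching several genes are not given in the sources used here. All 58735 gene identifiers and positions matched GENCODE (GRCh38). Of 2 identifiers named SOD2, the lower was used.

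The libraries held 14733088, 14738298 and 15786457 counts. Genes with at least 10 counts in total (19849) entered edgeR 4.0.16 (R 4.3.3) with TMM, glmQLFit and glmQLFTest, comparing the knockdown-labelled libraries with the control, with Benjamini-Hochberg adjustment over all of them. The scripts were tested on simulated data. Ratios of 2 libraries carry exact 95% counting intervals, which cover counting error only because PCR copies cannot be told from separate molecules. Shared sequence is the percentage of 31-base words of a gene's transcripts found in other genes. Length and GC trends were removed over 20 classes of each.

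Alternatives were DESeq2 1.42.0 (test and size factors), library totals alone, at least 30 or at least 1 count, a prior count of 2, log2(FPKM + 1), the sum of CXCL1, CXCL2 and CXCL3, and each knockdown-labelled library left out. All members and CD274 are named. As no gene of the other lists was called, their 2 highest and 2 lowest log2 fold changes at a mean of at least 100 counts are named, with genes at 3 counts or fewer and those said to be chosen with values known. The members and lists were chosen with earlier results of these data known.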

Additional observations from a re-analysis of the deposited data

Results flagged for a closer look

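CXCL8 lay on opposite sides of the control in the 2 knockdown-labelled libraries, with 117 counts in the control, 158 in knockdown-labelled library 1 and 90 in knockdown-labelled library 2. The ratio of the second to the first was 0.53 on TMM-scaled counts, and the difference was not tested, because each hairpin has 1 library.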

How the results depend on the processing

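No member passed an adjusted p under 0.05 under any alternative with a test, and of the recomputed counts of genes and values of CD274, 63 kept their side or stayed within 1.5 times of the reported value and 14 did not. At least 30 counts, DESeq2's Wald test and the sum of CXCL1, CXCL2 and CXCL3 each took the members at an unadjusted p under 0.05 from 1 to 0, and likewise those also past an absolute log2 fold change of 1. The first and the last leave CXCL3 out as a gene of its own. Over all genes, those higher at an adjusted p under 0.05 went from 49 to 12 with at least 30 counts, 3 with DESeq2 and 19 with the length and GC trends removed, and those lower from 21 to 4, 3 and 13. Those past both looser thresholds (unadjusted p 0.05, absolute log2 fold change 1) went from 492 to 264 with at least 30 counts and 46 with DESeq2. The cause was not tested.

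The sum of CXCL1, CXCL2 and CXCL3 had a log2 fold change of 0.21, beside -0.26 for CXCL1 alone. CXCL2, at 0.18 alone, made up most of that sum, so its sign is not that of CXCL1. The log2 fold change of CXCL8 was -0.48 without knockdown-labelled library 1 and 0.44 without knockdown-labelled library 2, and that of TNFAIP3 was -0.032 and 0.000897. Leaving out either of these libraries gave 2.01 to 2.93 for CXCL3, -0.49 to -0.05 for CXCL1, 0.10 to 0.27 for CXCL2 and 0.16 to 0.18 for NFKBIA, without a test. Leaving out the control was not possible. No paired analysis was possible because the control group has 1 library. With 2 to 16 counts for CXCL3 and at most 3 for IL1A, IL1B, CCL2 and CCL20, depth limits what can be said of these 5 genes.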
